A study of Mus musculus with 6 samples.

Results

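A group of 9 genes of vascular adhesion and haemostasis was examined in heart tissue: Vwf, Selp, Sele, Icam1, Vcam1, Procr, Plat, F3 and Tfpi. These 9 rows were taken by gene symbol from the 49315 genes of the count table, and 8 of them were among the 14370 genes with enough reads to test. Selp was too low. Messenger RNA of mid-ventricular heart tissue had been sequenced from adult mice of 2 groups, 3 libraries each, called biological replicates in the design text. One group was wild type (WT). The other, TET2KO, carried a knockout of Tet2, which encodes an enzyme that oxidises methylated cytosine in DNA, directed to endothelial cells. Both groups had received Angiotensin II, a pressor peptide, from osmotic minipumps at 1 mg/kg/day for 28 days, so no untreated heart was compared. The sources used here leave unstated the promoter that drove the deletion, the exons removed and the sex of the mice.

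Libraries held 22124844 to 30418909 reads and carried 1 batch label. Levels are CPM, reads relative to the TMM-adjusted size of the library, as mean ± SD of the 3 libraries of a group. Each fold change is log2 of TET2KO over WT with its SE, from the quasi-likelihood test of edgeR, and each adjusted p is a Benjamini-Hochberg value over all tested genes, read at 0.05. The p-values measure the spread between these libraries. The next 3 facts of the whole series touch every value. Tet2 stood at 3.08 to 4.33 CPM in the libraries labelled WT and at 8.01 to 14.6 CPM in those labelled TET2KO, against the labels (1.49 ± 0.29, adjusted p = 0.0065; 0.27, adjusted p = 0.21, after the correction described next), so each direction is that of the labels. Fold changes followed transcript length: with genes split by transcript length into 10 classes of equal size, the median was -1.29 in the shortest class and 1.38 in the longest. Each gene is therefore also given as a trend-removed value, from the same fit after a smooth trend on transcript length and GC content had been taken out of each library. TET2KO replicate 2 stood apart in its group: its counts differed from those of TET2KO replicates 1 and 3 with a chi-square per degree of freedom of 259.6 and 119.9, against 41.4 between those 2. Values without it are given where it decides a call. Leaving it out raised the calls over all genes, as counted, from 4806 to 5928 higher and from 4231 to 5250 lower.

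Endothelial cells line every vessel and hold back both leukocytes and clotting until they are activated. Activated endothelium displays selectins, on which leukocytes roll, and then the immunoglobulin-type ligands ICAM-1 and VCAM-1, to which leukocyte integrins bind firmly. Clotting starts where tissue factor outside the vessel lining meets factor VII of the plasma. The endothelium restrains it with tissue factor pathway inhibitor and the protein C system, and dissolves fibrin through tissue plasminogen activator. Cytokine signals through the transcription factor NF-kappaB are a classical inducer of E-selectin, ICAM-1, VCAM-1 and tissue factor.

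Of the 8 tested genes, F3 rose, Tfpi fell and the other 6 did not pass the test. That is 25% of the 8, where 62.9% of all tested genes passed, 33.4% higher and 29.4% lower. With DESeq2, 3 of the 8 passed higher and 1 lower, where 4837 of all 14370 tested genes passed higher and 4490 lower. F3 encodes tissue factor, the cell-surface starter of clotting, and Tfpi encodes the Kunitz-type inhibitor of its complex with factor VIIa. After trend removal 3 of the 8 passed higher (Sele, Vcam1 and F3) and 2 lower (Vwf and Tfpi), against 46.2% of all genes, 21.9% higher and 24.3% lower. A second version removed a trend on the length implied by the deposited counts and TPM values alone, without GC content. In it 2 passed higher (Sele and F3) and 2 lower (Plat and Tfpi), against 53% of all genes, 25.1% higher and 27.9% lower. F3 and Tfpi thus passed in all 3 fits with the same sign. The median log2 fold change of the 8 was 0.39 as counted and 0.14 after trend removal, beside 0.046 and -0.031 over all tested genes. The CPM values of the groups did not overlap in 5 of the 8, 3 higher and 2 lower, where 73.5% of all genes did not overlap, 38% higher and 35.5% lower.

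**Figure D1:**
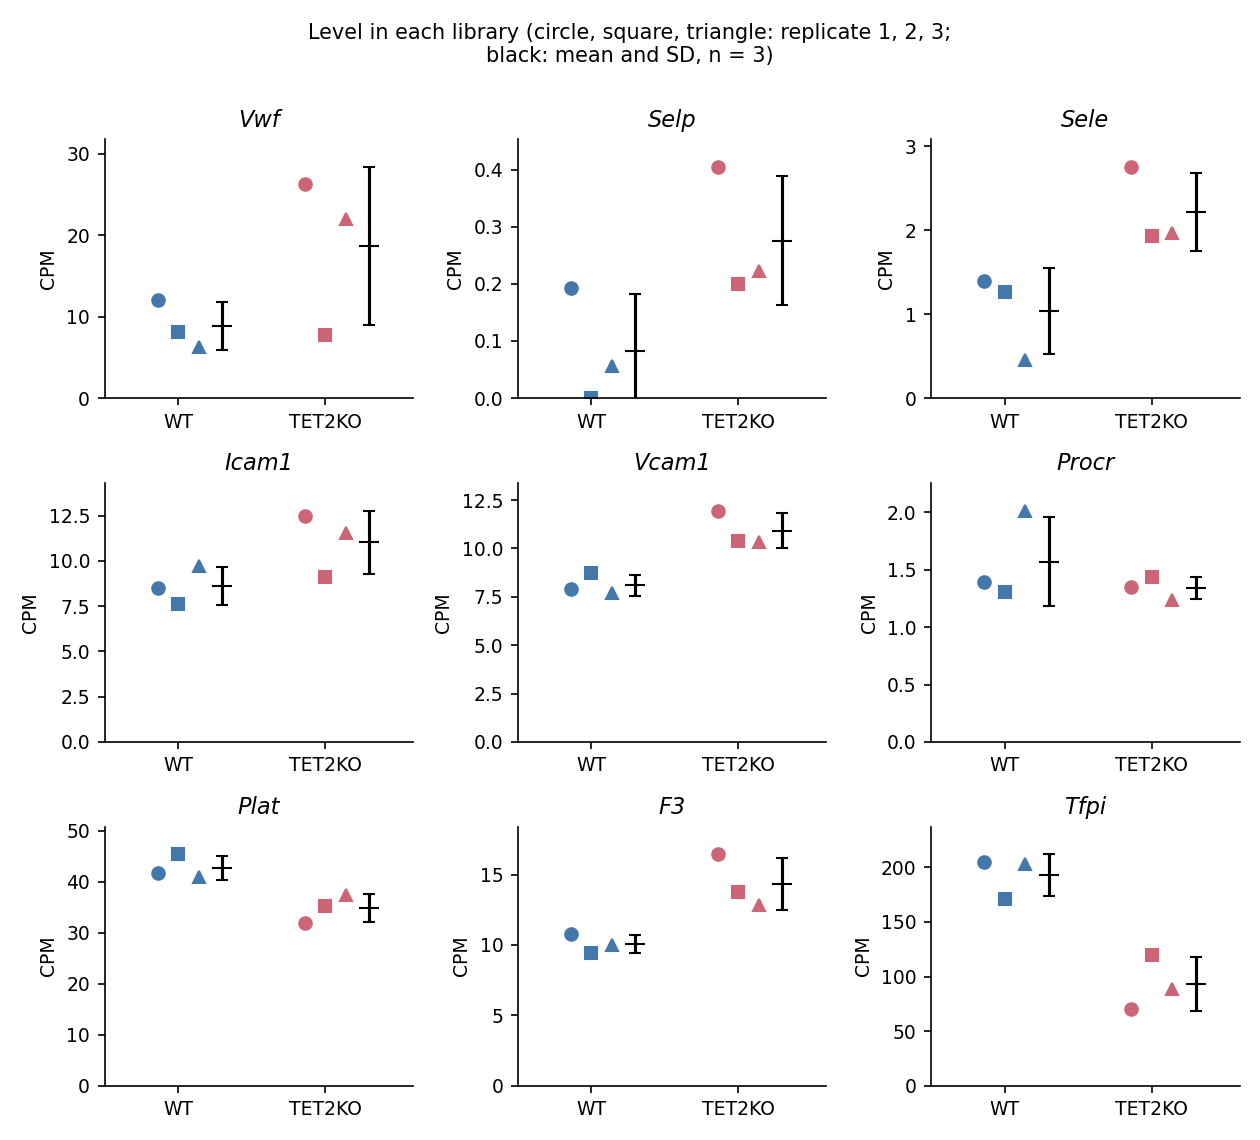
Level of each gene in CPM (vertical axes, each from 0) in the 3 WT libraries (blue) and the 3 TET2KO libraries (red), with the mean and SD of each group in black; the SD bar of Selp in WT is cut at 0. The groups do not overlap for Sele, Vcam1, F3, Plat, Tfpi and Selp, and TET2KO replicate 2 lies within the WT range for Vwf and Icam1.

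Levels between genes were compared per length, as the TPM values deposited by the authors. In WT the order was Tfpi (55.3 ± 2.46 TPM), Plat (10.8 ± 1.51), F3 (6.26 ± 0.453), Icam1 (3.09 ± 0.142), Vcam1 (1.44 ± 0.219), Procr (1.21 ± 0.209), Vwf (0.871 ± 0.298), Sele (0.571 ± 0.301) and Selp (0.0287 ± 0.0349). The neighbours Vcam1 and Procr, Procr and Vwf, and Vwf and Sele overlapped in their single libraries; the other neighbours did not. In TET2KO Tfpi again came first at 40.9 ± 7.16 TPM. F3 (14.0 ± 3.08) and Plat (13.6 ± 0.9505) followed with overlapping libraries, then Icam1 (6.27 ± 1.54), Vcam1 (3.03 ± 0.542), Vwf (2.94 ± 1.71), Sele (1.89 ± 0.580), Procr (1.62 ± 0.164) and Selp (0.157 ± 0.0794), with overlap between Vcam1 and Vwf, Vwf and Sele, and Sele and Procr. F3 was thus below Plat in every WT library and overlapped it in TET2KO. On this scale 6 of the 8 tested genes were higher in every TET2KO library than in every WT library, all but Vwf and Tfpi, where 56.8% of all genes were. Tfpi was lower without overlap, as were 16.5% of genes. In whole tissue, fewer cells of a type and less RNA per cell cannot be told apart.

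Transcript length placed these genes differently against the rest. Vwf has the longest transcript of the 8 (8834 nt) and stood at 1.08 where the median of its length class was 1.38. F3 (1872 nt) stood at 0.51 where its class had a median of -0.50, and Sele (2912 nt) at 1.08 against -0.022. Tfpi (3968 nt) lay at -1.05 in a class whose median was 0.42. Procr (1597 nt) stood at -0.22 against -0.85. Icam1 (2535 nt) stood at 0.36 against -0.022, Vcam1 (3469 nt) at 0.43 against 0.28 and Plat (2525 nt) at -0.29 against -0.17.

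**Figure D2:**
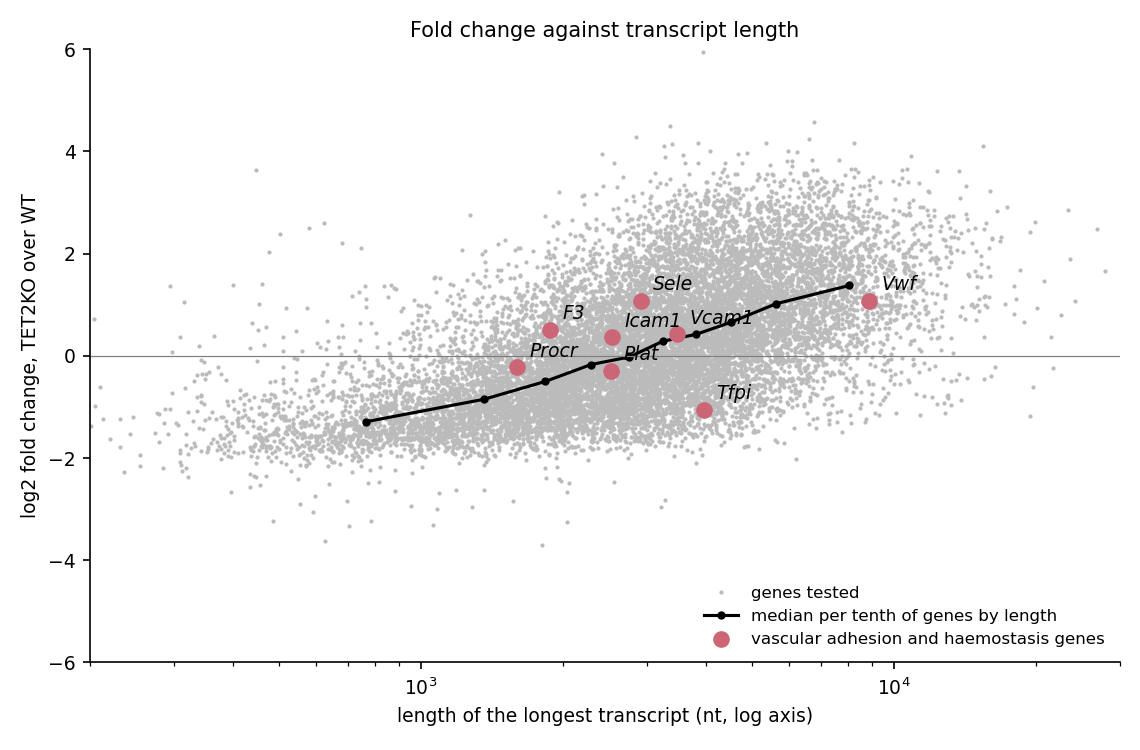
Log2 fold change as counted (TET2KO over WT, vertical axis) against the length of the longest transcript (nt, log axis) for all tested genes with an annotated transcript (grey; 65 lie outside the axes), the median of each of the 10 length classes (black) and the 8 tested adhesion and haemostasis genes (red). F3 and Sele lie above the line of medians, Tfpi below it, and Vwf near it at the long end.

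The sequence just upstream of 4 of these genes is shown because Sele, Icam1 and F3 are textbook targets of NF-kappaB, and because F3 and Tfpi passed in opposite directions. The windows are the 250 bases before the RefSeq transcription start (GRCm38.p6), 5′ to 3′ on the gene's own strand. Capitals mark matches on either strand to GGNNNTTCC, a reduced NF-kappaB pattern, or TGANTCA, a reduced AP-1 pattern; the patterns do not overlap each other here. They lie at chr1:164047984-164048233 (plus strand) for Sele, chr9:21015690-21015939 (plus) for Icam1, chr3:121723287-121723536 (plus) for F3 and chr2:84476760-84477009 (minus) for Tfpi.
Sele: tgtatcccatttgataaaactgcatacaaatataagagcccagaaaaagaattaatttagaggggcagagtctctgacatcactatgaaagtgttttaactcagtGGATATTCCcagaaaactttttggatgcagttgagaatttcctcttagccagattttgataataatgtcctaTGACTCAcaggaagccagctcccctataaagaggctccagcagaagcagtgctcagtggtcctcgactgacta
Icam1: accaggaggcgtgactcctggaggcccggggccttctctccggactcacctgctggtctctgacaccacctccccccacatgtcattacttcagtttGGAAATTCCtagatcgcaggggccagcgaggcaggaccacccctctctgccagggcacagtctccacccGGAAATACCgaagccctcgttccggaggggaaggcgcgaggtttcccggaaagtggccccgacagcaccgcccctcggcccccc
F3: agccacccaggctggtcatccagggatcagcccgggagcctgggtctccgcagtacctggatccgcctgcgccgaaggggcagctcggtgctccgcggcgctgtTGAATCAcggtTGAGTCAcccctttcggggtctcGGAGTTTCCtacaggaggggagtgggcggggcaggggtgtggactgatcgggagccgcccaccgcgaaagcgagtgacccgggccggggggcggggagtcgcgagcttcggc
Tfpi: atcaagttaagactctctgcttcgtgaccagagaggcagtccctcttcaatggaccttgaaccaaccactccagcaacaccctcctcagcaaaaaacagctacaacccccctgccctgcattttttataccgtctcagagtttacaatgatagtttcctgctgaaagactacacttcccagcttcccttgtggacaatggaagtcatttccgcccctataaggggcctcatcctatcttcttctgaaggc

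RefSeq windows were held for 6 of the 9 genes (Sele, Selp, Icam1, F3, Procr and Tfpi, the last with 2 starts); Vwf, Vcam1 and Plat had no entry. GGNNNTTCC was found in 4 of the 6 genes, F3, Icam1, Sele and Selp, and in 15.7% of 32851 windows of the same length. TGANTCA was found in F3, Procr, Sele and Selp, and in 6.75% of windows. The first match to GGNNNTTCC began 145 bases before the start in Sele, 153 in Icam1 and 112 in F3. Neither Tfpi window held these letters. The number of CpG dinucleotides, the substrate of DNA methylation, was 24 in the F3 window, 15 in Icam1, 13 in Procr, 3 in Selp and in each Tfpi window, and 1 in Sele, with a median of 6 over all windows. Methylation itself was not measured in these libraries. The patterns were chosen with the results of these genes known, and a match describes letters only.

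Sele encodes E-selectin (ENSMUSG00000026582, GRCm38 chromosome 1, 164048234 to 164057677, plus strand), which activated endothelium makes anew to catch rolling leukocytes. WT replicates 1, 2 and 3 stood at 1.39, 1.27 and 0.448 CPM, TET2KO replicates 1, 2 and 3 at 2.75, 1.93 and 1.97 CPM. All 3 TET2KO libraries were above all 3 WT libraries, and the lowest value, WT replicate 3, rested on 8 reads. The difference did not pass (1.08 ± 0.41, adjusted p = 0.051), and the trend-removed value of 1.17 ± 0.37 did (adjusted p = 0.031). As counted, Sele passed without TET2KO replicate 2 (1.18) but not with any other library left out (0.73 to 1.32). The trend-removed call was lost when WT replicate 2 (1.33), WT replicate 3 (0.84), TET2KO replicate 1 (0.97) or TET2KO replicate 3 (1.25) was left out.

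Selp encodes P-selectin (ENSMUSG00000026580, chromosome 1, 164115264 to 164150026, plus strand), which is stored ready-made in the granules of endothelial cells and platelets. It had 4, 0 and 1 reads in the WT libraries and 15, 6 and 7 in the TET2KO libraries. The groups did not overlap, and the level was too low for the test. Pooled over libraries, 5 reads in WT and 28 in TET2KO give a ratio of 3.59 after scaling, with an exact 95% interval of 1.37 to 11.9 that covers counting error only and not the spread between mice.

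Icam1 and Vcam1 encode the endothelial ligands of leukocyte integrins. Icam1 (ENSMUSG00000037405, chromosome 9, 21015985 to 21028817, plus strand) stood at 8.50, 7.603 and 9.74 CPM in the WT libraries, against 12.5, 9.11 and 11.6 CPM in the TET2KO libraries. TET2KO replicate 2 lay below WT replicate 3, so the groups overlapped. The difference did not pass as counted (0.36 ± 0.21, adjusted p = 0.16) or after trend removal, where its sign turned (-0.11 ± 0.15, adjusted p = 0.57). Without TET2KO replicate 2 it passed as counted (0.51), but not with any other library left out.

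Vcam1 (ENSMUSG00000027962, chromosome 3, 116109949 to 116129688, minus strand) stood at 7.92, 8.71 and 7.67 CPM in the WT libraries, against 11.95, 10.4 and 10.4 CPM in the TET2KO libraries. The groups did not overlap. The difference was 0.43 ± 0.18 (adjusted p = 0.072), and 0.65 ± 0.16 after trend removal, past the test (adjusted p = 0.012). Without TET2KO replicate 2 it passed as counted (0.48), but not with any other library left out. The trend-removed call was lost when WT replicate 1 was left out (0.62). With length taken from the ratio of deposited counts to TPM, and GC content left out, the sign of Vcam1 turned (-0.44 ± 0.20, adjusted p = 0.10). Exons of Selp, Icam1 and Vcam1 overlap exons of annotated genes on the opposite strand, over 511 nt in Icam1 and 61 nt in Vcam1. The sources used here do not state the strand setting of the counting, so such reads cannot be told apart.

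Vwf encodes von Willebrand factor (ENSMUSG00000001930, chromosome 6, 125546774 to 125686679, plus strand), the long multimer that tethers platelets and carries factor VIII in plasma. WT replicates 1, 2 and 3 stood at 12.1, 8.13 and 6.33 CPM, TET2KO replicates 1, 2 and 3 at 26.3, 7.74 and 21.98 CPM. TET2KO replicates 1 and 3 lay above all WT libraries and replicate 2 among them. The difference did not pass (1.08 ± 0.45, adjusted p = 0.067). Without TET2KO replicate 2 it was 1.46 and passed (adjusted p = 1.1e-05), but as counted it did not pass with any other library left out. After trend removal the sign turned and the value passed lower (-1.16 ± 0.21, adjusted p = 0.0046). With length taken from the deposited tables and GC content left out it was -0.15 ± 0.28 and did not pass (adjusted p = 0.65). The sign of Vwf thus depended on whether a trend was removed, and the lower call on which trend. These versions differ in the length used and in GC content, whose parts cannot be told apart here.

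**Figure D3:**
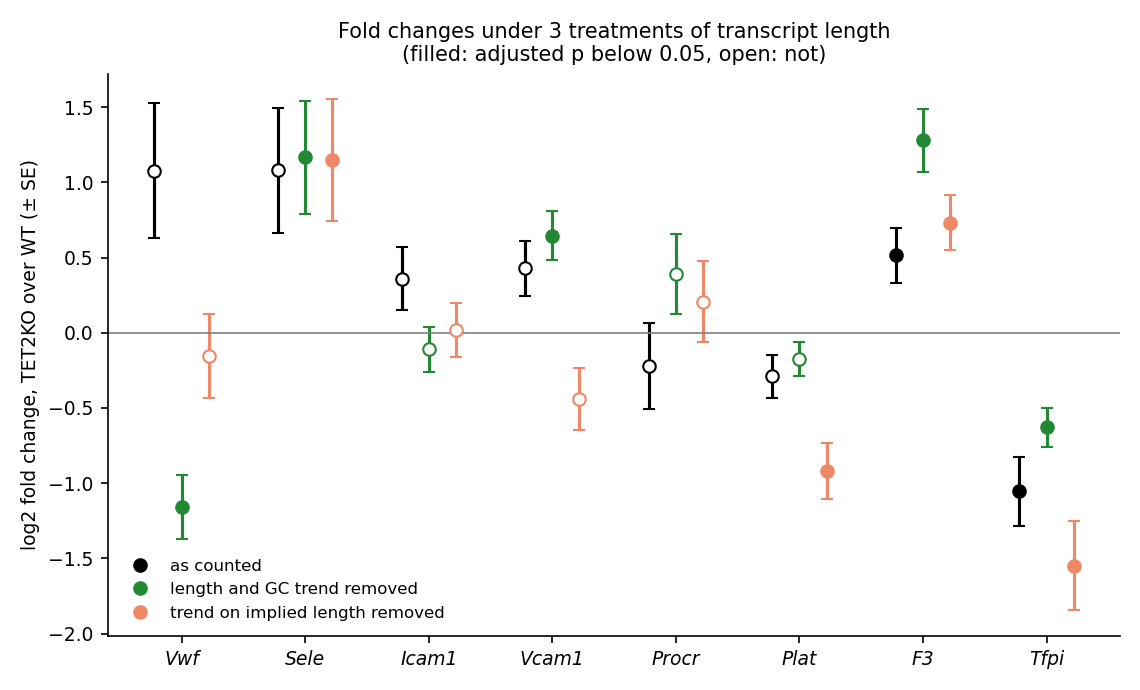
Log2 fold change, TET2KO over WT, with SE (vertical axis) of the 8 tested genes as counted (black), with the length and GC trend removed (green) and with a trend on the length implied by the deposited tables removed (orange); filled points passed at an adjusted p below 0.05. Points of F3 and Tfpi are filled under all 3 treatments, on opposite sides of 0, while Vwf changes side.

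F3 (ENSMUSG00000028128, chromosome 3, 121723537 to 121735048, plus strand) stood at 10.8, 9.44 and 9.97 CPM in the WT libraries, against 16.4, 13.8 and 12.9 CPM in the TET2KO libraries. The lowest TET2KO library exceeded the highest WT library. F3 rose 1.43-fold (0.51 ± 0.18, adjusted p = 0.039). The trend-removed value was larger, at 1.28 ± 0.21 (adjusted p = 0.0040), and with length from the deposited tables it was 0.73 ± 0.18 (adjusted p = 0.013). As counted, the call was kept without TET2KO replicate 2 (0.57) and lost when any other library was left out: WT replicate 1 (0.55), 2 (0.46) or 3 (0.50), or TET2KO replicate 1 (0.44) or 3 (0.63). After trend removal F3 passed without each of the 6 libraries in turn, at 1.02 to 1.43.

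Tfpi (ENSMUSG00000027082, chromosome 2, 84432855 to 84476775, minus strand) had the highest TPM of the 9 in both groups, on 4263, 4176 and 3624 reads in WT and 2600, 3577 and 2799 in TET2KO. These gave 205, 171 and 203 CPM for WT, against 70.1, 119 and 88.9 CPM for TET2KO, with no overlap. TET2KO replicate 2 was the nearest to WT. Tfpi fell to 0.481 of its WT level (-1.05 ± 0.23, adjusted p = 0.0072), and the trend-removed value was -0.63 ± 0.13 (adjusted p = 0.0063). It passed lower under each of 23 alternatives, including each library left out, at -1.55 to -0.44.

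The ratio of F3 to Tfpi within a library does not depend on how libraries are scaled. In TPM it was 0.114, 0.120 and 0.106 in WT and 0.506, 0.250 and 0.313 in TET2KO. The means were 0.113 ± 0.00671 and 0.356 ± 0.134, a log2 difference of 1.59 with a within-group SD of 0.37. All 3 TET2KO libraries were above all WT libraries, and the two-sided exact permutation p was 0.1, the smallest that 3 against 3 allows (0.15 adjusted over 6 such ratios). In the fits the log2 fold change of F3 less that of Tfpi was 1.57 as counted, 1.91 after trend removal and 2.28 with length from the deposited tables.

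**Figure D4:**
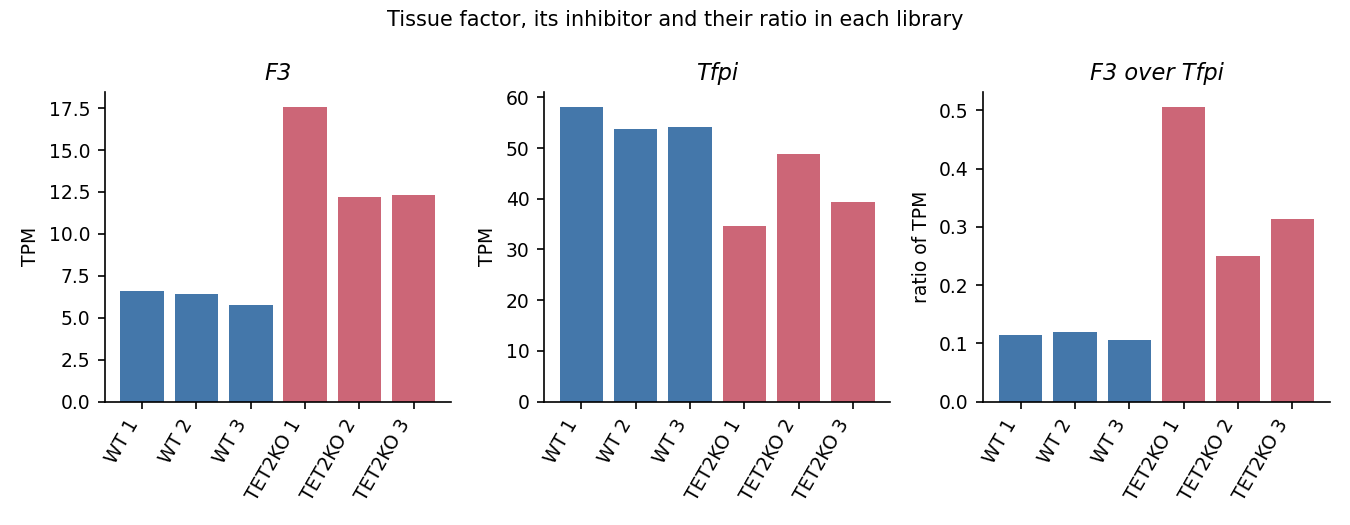
F3 in TPM, Tfpi in TPM and the ratio of both (vertical axes from 0) in each of the 3 WT (blue) and 3 TET2KO (red) libraries. F3 is higher and Tfpi lower in every TET2KO library than in every WT library, and the ratio runs from 0.106 to 0.120 in WT and from 0.250 to 0.506 in TET2KO.

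Procr encodes the endothelial protein C receptor (ENSMUSG00000027611, chromosome 2, 155751117 to 155755471, plus strand), which presents protein C to the thrombin and thrombomodulin complex for activation. WT stood at 1.39, 1.31 and 2.02 CPM, TET2KO at 1.35, 1.43 and 1.24 CPM, on 29 to 50 reads per library. The groups overlapped and the difference was -0.22 ± 0.29 (adjusted p = 0.52). The trend-removed value of 0.39 ± 0.27 had the other sign and did not pass either (adjusted p = 0.26). Thbd, which encodes thrombomodulin itself and was named after its value was seen, stood at 0.61 ± 0.16 as counted, past the test (adjusted p = 0.012), and at 0.013 after trend removal (adjusted p = 0.94). The call as counted was lost when WT replicate 1 (0.61), WT replicate 3 (0.56) or TET2KO replicate 3 (0.54) was left out.

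Plat encodes tissue plasminogen activator (ENSMUSG00000031538, chromosome 8, 22757727 to 22782844, plus strand), the enzyme by which endothelium turns plasminogen into plasmin. WT stood at 41.6, 45.3 and 40.9 CPM, TET2KO at 32.0, 35.3 and 37.4 CPM, without overlap. The difference did not pass (-0.29 ± 0.15, adjusted p = 0.11), nor did the trend-removed value (-0.17 ± 0.11, adjusted p = 0.24). With length from the deposited tables it passed lower (-0.92 ± 0.19, adjusted p = 0.0081). The sign depended on scaling: with total library size it was 0.13, and on log2(TPM + 1) values 0.32.

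The scaling moved the median of all genes and, on the TPM scale, the place of single genes relative to it. The median log2 fold change of all tested genes was 0.046 with TMM factors, 0.47 with total library size and 0.41 on log2(TPM + 1) values, and 53.2, 74.2 and 79.6% of the calls were higher. Relative to that median, Tfpi lay at -1.10, -1.11 and -0.85, F3 at 0.47, 0.47 and 0.62, and Vcam1 at 0.38, 0.38 and 0.30. Procr lay at -0.27, -0.26 and -0.17 and Plat at -0.34, -0.34 and -0.095. Vwf lay at 1.03, 1.04 and 0.56, Sele at 1.03, 1.02 and 0.47, and Icam1 at 0.31, 0.33 and 0.39. With the smaller pseudocount, on log2(TPM + 0.1) values, Vwf lay at 0.84 and Sele at 1.02. The authors' deposited table lists adjusted p-values under 0.05 for 4 of the 8 genes, Vwf (1.01), Sele (1.03) and F3 (0.46) higher and Tfpi (-1.10) lower, among 65% of its 14370 genes.

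The adhesion genes were also set against Pecam1, a pan-endothelial adhesion molecule that rose (1.41 ± 0.23, trend-removed 1.03 ± 0.16). The Icam1 to Pecam1 ratio in TPM was 0.221, 0.184 and 0.275 in WT and 0.104, 0.127 and 0.101 in TET2KO. The Vcam1 to Pecam1 ratio was 0.101, 0.103 and 0.107 in WT and 0.0492, 0.0715 and 0.0444 in TET2KO. Neither ratio overlapped between groups (log2 differences of -1.02 and -0.95, each with an exact permutation p of 0.1, adjusted 0.15). The ratios of Sele and Vwf to Pecam1 overlapped, with log2 differences of -0.13 (exact permutation p = 0.9) and -0.43 (p = 0.5). In the fits, Icam1 less Pecam1 was -1.05 as counted and -1.14 after trend removal, and Vcam1 less Pecam1 -0.98 and -0.38. Both kept their sign under all 23 alternatives. These ratios share Pecam1 and are not independent of each other. Of 12 pan-endothelial markers 9 were higher as counted, Pecam1 among them, and 3 lower, among them Emcn (-0.57, trend-removed 0.21). Ratios to another endothelial marker were not computed, so these signs hold for Pecam1 as the reference only.

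Related genes were counted by list, beside shares of 33.4% higher and 29.4% lower as counted, and 21.9% and 24.3% after trend removal, over all tested genes. Among 15 tested other endothelial adhesion molecules, 5 passed higher and 5 lower, with a median of -0.042 (4 and 4 after trend removal). With no filter, a replicate block or 1 library left out, 2 to 6 passed lower, and with total library size or TPM values 1 did. Cd47, a signal against phagocytosis, fell by 1.10 (SE 0.20, trend-removed -1.31 ± 0.18), while Pecam1 rose. Leukocyte counter-receptors, which include those of E-selectin, ICAM-1 and VCAM-1, varied with the scaling. With edgeR 2 of 12 tested were higher and 0 lower (2 and 0 at an unadjusted p under 0.05, 2 and 0 with DESeq2). After trend removal 1 was higher and 2 lower, and without TET2KO replicate 2 as counted 6 were higher. With total library size 7 were higher, and on log2(TPM + 1) and log2(TPM + 0.1) values 6 and 8. Of all 14370 tested genes, 6534, 7166 and 7270 were higher on these scales and 2270, 1832 and 1882 lower, in that order. Selplg, which encodes the selectin ligand PSGL-1, rose from 0.384, 0.858 and 0.392 CPM to 2.70, 2.07 and 2.22 CPM (2.06 ± 0.38, trend-removed 1.87 ± 0.35).

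Von Willebrand factor and P-selectin share a storage granule of endothelial cells, the Weibel-Palade body. Among 22 tested genes of this granule and its release, 8 passed higher and 5 lower, with a median of 0.18 (9 and 6 after trend removal), and 13 and 3 on both TPM scales. On the TPM scales 7166 and 7270 of all 14370 tested genes were higher and 1832 and 1882 lower. Vamp8, a vesicle SNARE, fell by 1.34 (SE 0.26, trend-removed -1.07 ± 0.19).

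**Figure D5:**
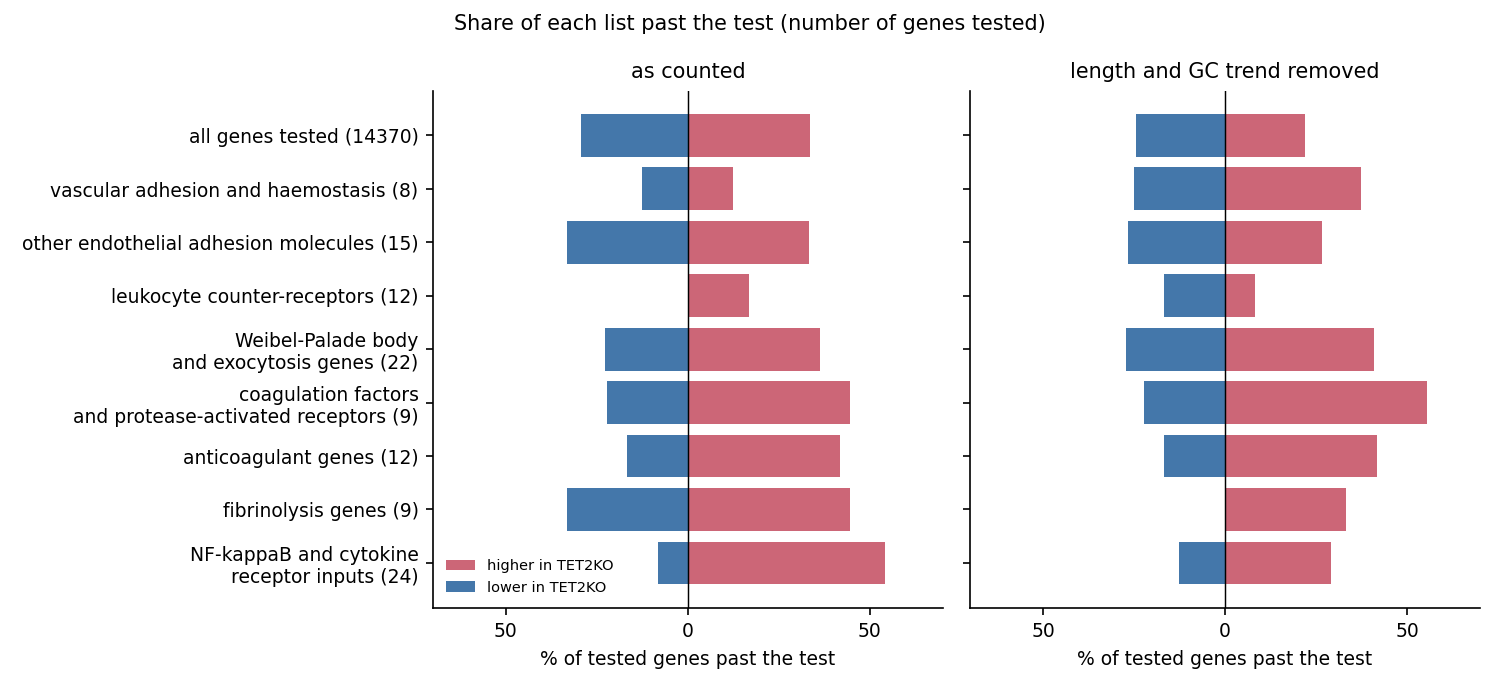
Share of tested genes past the test (horizontal axes, %) that were higher (red, right) or lower (blue, left) in TET2KO, for all tested genes, the vascular adhesion and haemostasis genes and 7 related lists, as counted (left panel) and with the length and GC trend removed (right panel); numbers of tested genes stand in brackets. As counted, 2 of the 8 adhesion and haemostasis genes passed, and after trend removal 5 did.

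Beside F3 and Tfpi, most coagulation factors, which the liver makes, were too low to test: 12 of the 21 genes of the list of coagulation factors and protease-activated receptors were left out. Among the 9 tested, 4 passed higher and 2 lower, with a median of -0.29 (5 and 2, with a median of 0.42, after trend removal). As counted, 2 passed higher without WT replicate 3. F2r, the main thrombin receptor PAR1, rose from 19.4, 19.0 and 11.7 CPM to 46.0, 28.3 and 37.6 CPM (1.16 ± 0.26, trend-removed 1.16 ± 0.23). Mcfd2, part of the cargo receptor for factors V and VIII, fell by 1.24 (SE 0.25, trend-removed -0.81 ± 0.15).

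Procr belongs with the anticoagulant genes and Plat with the fibrinolysis genes, and 58.3% and 77.8% of the tested genes of these lists passed as counted, where 62.9% of all genes did. Among 12 tested genes of the anticoagulant list, 5 passed higher and 2 lower, with a median of 0.36 (5 and 2 after trend removal). The 2 lower were Nt5e and Plscr1, and Plscr1 encodes a phospholipid scramblase, which is not itself an anticoagulant. As counted, 1 passed higher without WT replicate 1 and 2 without WT replicate 3 or TET2KO replicate 3. Among 9 tested fibrinolysis genes, 4 passed higher and 3 lower, with a median of 0.41; 2 passed higher with any library but TET2KO replicate 2 left out. After trend removal edgeR counted 3 higher and 0 lower (3 and 0 at an unadjusted p under 0.05, while DESeq2 as counted gave 4 and 3), and with implied length 1 was higher and 3 lower.

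Among 24 genes of NF-kappaB, its cytokine receptors and its inhibitors, which act on the induction of Sele, Icam1, Vcam1 and F3, 13 passed higher and 2 lower, with a median of 0.65, and 7 and 3 after trend removal, with a median of 0.042. The list holds genes that restrain this induction: of these, Klf2 (1.00 ± 0.34, adjusted p = 0.036), named after its value was seen, and Klf4 (1.43 ± 0.28, adjusted p = 0.0065), transcription factors of quiescent endothelium, are among the 13. Nfkbia, Nfkbib, Nfkbie and Tnfaip3 did not pass as counted. After trend removal Klf4 (0.72, adjusted p = 0.014) and Nfkbia (0.47, adjusted p = 0.032) passed higher. Klf2 (0.55, adjusted p = 0.15), Nfkbib, Nfkbie and Tnfaip3 did not pass in that fit. As counted, 8 passed higher without WT replicate 1 and 7 without WT replicate 3, and after trend removal 3 to 9 did with 1 library left out. Rela, the transactivating NF-kappaB subunit p65, rose from 2.06, 3.02 and 1.62 CPM to 28.3, 6.84 and 21.1 CPM (3.06 ± 0.53, trend-removed 1.87 ± 0.34). Il1b, the cytokine interleukin-1 beta, fell from 3.22, 2.00 and 1.96 CPM to 0.459, 0.467 and 0.222 CPM (-2.63 ± 0.39, trend-removed -1.60 ± 0.38). The gene of the NF-kappaB subunit and that of the cytokine thus moved in opposite directions. Pecam1, Cd47, Selplg, Vamp8, F2r, Mcfd2, Rela and Il1b passed with the same sign under each of 23 alternatives. The naming rule also took Podxl, Ap1b1, Lman1, Nos3, Entpd1, Serpine2, Serping1 and Klf4 higher and Jam2, Vamp3, Plscr1 and Nt5e lower, which passed in both fits and each lost the call under at least 1 alternative.

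Markers of the cells that could carry these transcripts differed between the groups too. Of 12 pan-endothelial markers 9 were higher and 3 lower as counted and 7 and 1 after trend removal, and their summed level was 570 to 613 CPM in WT and 628 to 1096 CPM in TET2KO. Of 6 endocardial markers 4 were higher and 1 lower (1 and 0 after trend removal), with a sum of 23.1 to 27.5 CPM in WT and 28.7 to 59.9 CPM in TET2KO. Of 13 platelet and megakaryocyte markers, cells that also make von Willebrand factor and P-selectin, 7 were tested, 1 higher and 4 lower (1 and 1 after trend removal), and the sum was 43.9 to 71.6 CPM in WT and 19.3 to 24.2 CPM in TET2KO. Of 7 erythroid markers 5 were tested and all 5 were lower in both fits, with a sum of 1555 to 7038 CPM in WT and 165 to 741 CPM in TET2KO. Of 12 leukocyte and macrophage markers 2 were higher and 3 lower (2 and 4 after trend removal), with a sum of 701 to 839 CPM in WT and 306 to 463 CPM in TET2KO. Of 6 neutrophil markers 3 were tested, 0 higher and 2 lower (0 and 1 after trend removal), with a sum of 2.35 to 6.70 CPM in WT and 1.03 to 1.62 CPM in TET2KO, and Ly6g at 0 reads in all libraries. Of 9 pericyte and smooth muscle markers 4 were higher and 3 lower (3 and 4 after trend removal), with a sum of 2237 to 2379 CPM in WT and 1424 to 1997 CPM in TET2KO. Of 6 adipocyte markers 3 were tested, 0 higher and 1 lower (1 and 0 after trend removal), with a sum of 1452 to 2011 CPM in WT and 493 to 910 CPM in TET2KO. Of 10 cardiomyocyte markers 5 were higher and 4 lower (6 and 2 after trend removal), with a sum of 78094 to 95736 CPM in WT and 59390 to 62870 CPM in TET2KO. None of these 9 sums overlapped between groups in CPM, as was so for 73.5% of single genes. The CPM sums of the fibroblast markers (4 of 8 higher and 4 lower, 1 and 0 after trend removal) and of the lymphatic endothelial, T, B and NK cell, epicardial and Schwann cell markers overlapped. In TPM the pericyte and smooth muscle sums did overlap (883 to 1030 in WT, 919 to 1164 in TET2KO). The TPM sums of the fibroblast markers (1151 to 1291 in WT, 1501 to 1645 in TET2KO) and lymphatic endothelial markers (17.0 to 24.4 and 25.1 to 47.0) did not. No marker other than Ly6g and the lymphatic Ccl21a was at 0 reads in every library. The part of these cells in the values of Vwf, Selp and the other genes was not tested.

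Across the 6 libraries, the genes whose log2 CPM followed each member most closely were Cspg4 and Tril for Vwf (Pearson's r = 0.998 and 0.997), Trpm7 and Rbm12 for Sele (0.993 and 0.991), and Hgsnat and Cad for Icam1 (0.994 and 0.992). For Vcam1 they were Gabbr1 and Mtx3 (0.999 and 0.998), for Plat Azin1 and Ankrd10 (0.995 and 0.992), for F3 Entpd6 and Smtnl2 (0.995 for each), and for Tfpi Mettl23 and Vamp8 (1.00 for each). Procr had CAAA01118383.1 and Lonp2 (0.978 and 0.973). With 6 points that share depth and the length trend such values are common: of 10612 genes, r was above 0.9 for 3557 with Tfpi and 3020 with Vcam1, for 1187 with F3, 736 with Vwf and 660 with Icam1, and for 27 with Procr.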

How the data were processed

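The 6 poly(A)-selected libraries (3 WT, 3 TET2KO) were read as pairs of 150 nt, per the labels' protocols. Trimmomatic 0.36, STAR 2.5.2b, featureCounts, Subread 1.5.2, DESeq2 and mouse build GRCm38 (mm10) are named in the submitters' processing notes. Raw read counts per gene and TPM values, which sum to the same total in each library, are the tables the authors deposited. A comparison table deposited by the authors gives log2 fold changes with p-values and adjusted p-values. Its library columns are a signal: the deposited counts over a constant for each library. All per-library columns matched a sample (0 unmatched).

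Counts were fitted with edgeR 4.0.16 in R 4.3.3 (quasi-likelihood F-test, robust, TMM, filterByExpr, group alone in the model, Benjamini-Hochberg at 0.05). The SE was taken as the size of the log2 fold change divided by the root of F. For the trend-removed fit, log2 CPM (prior count 2) of each library was smoothed with mgcv 1.9.3 (basis 6 per axis) on length and GC content of the longest GENCODE M21 transcript, known for 14341 of the 14370 genes. A real difference that tracks length or GC is removed with it. The second version used counts over TPM as length (Spearman's rho 0.943 with merged exon length across 14341 genes, which are not independent). It held no GC term, so the versions differ in both length and GC content. Members, lists and the rule for named genes were chosen with earlier results of these data known. The rule took from each list up to 2 higher and 2 lower genes of smallest p, past the test in both fits with the same sign, and for each member the 2 genes of highest r. Some genes that the lists hold, and 1 ratio, are not reported here. Replicates differed beyond sampling noise in every pair (chi-square per degree of freedom 11.9 to 259.6). Tested on simulated data for this comparison (14205 genes, no trend), the fit called 49 of 100 genes set to a log2 fold of 1, 97 of 100 set to 2, and 10 unchanged ones. With a trend added (14222 genes) it called 6355 unchanged genes, and 10 once the trend was removed. The added trend was the one that the same smoother had fitted to these libraries. The simulation therefore cannot show whether the real trend has that form. The alternatives were limma 3.58.1 (voom, and log2 TPM with pseudocounts of 1 and 0.1), DESeq2 1.42.0, 2 other scalings, no filter, a replicate block, and each library left out in turn, with and without the trend.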

Additional observations from a re-analysis of the deposited data

How the results depend on the processing

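Of the 8 tested genes, Tfpi alone passed with 1 sign under each of 23 alternatives. F3 and Sele kept their sign under all 23 and passed under 15 and 13. The number of members past the test and higher, 1 as reported, was 0 with DESeq2 size factors (3 at an unadjusted p under 0.05), 5 with total library size, 3 with DESeq2, 2 with limma-voom, 2 with no filter, and 5 on log2(TPM + 1) and on log2(TPM + 0.1) values. Over all genes tested under each of these settings, 4632, 6534, 4837, 4490, 4992, 7166 and 7270 passed higher, in the same order. The number of members higher was 3 with the trend removed, 2 with implied length, 0 to 5 with 1 library left out and 2 to 3 with 1 library left out and the trend removed. The number lower, 1 as reported, was 2 with either trend removed. With 1 library left out it stayed at 1 as counted and at 2 with the trend removed. Same-numbered libraries of both groups did not deviate together (r of 0.039, -0.23 and -0.013), so they share only a number. With the replicate block 1 member was higher (Sele, at 1.16, in place of F3, at 0.51) and 1 lower, and 4070 genes were higher and 3548 lower. With the replicate block and the trend removed, 3 members were higher and 2 lower, with 2741 genes higher and 2996 lower.

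Vwf, as counted 1.08, was -1.16 with the trend removed, -0.15 with implied length and -1.13 with the replicate block and the trend removed. Leaving out 1 library gave 0.78 to 1.46 as counted and -1.31 to -0.90 with the trend removed. Icam1 was -0.11 with the trend removed, -0.11 with the block added, and 0.27 to 0.51 and -0.22 to -0.022 with 1 library left out. Procr was 0.39, 0.21 and 0.39 under the 3 settings given for Vwf, and -0.35 to -0.018 and 0.27 to 0.56 with 1 library left out. Procr was 0.22 with total library size and 0.25 and 0.40 on the log2(TPM + 1) and log2(TPM + 0.1) scales, and Plat 0.13, 0.32 and 0.34. Vcam1 was -0.44 with implied length, and Jam2 0.011 on both TPM scales. Thbd was 0.54 to 0.70 and -0.054 to 0.13 with 1 library left out. Sele less Pecam1, -0.33 as counted, was 0.14, 0.42 and 0.21 under the 3 settings given for Vwf, and -0.61 to -0.074 and -0.14 to 0.40 with 1 library left out. F3 less Tfpi was 2.28 with implied length, and 1.29 to 1.82 and 1.55 to 2.15 with 1 library left out. Over all genes, 4806 higher and 4231 lower became 3146 higher with the trend removed, 7270 higher on log2(TPM + 0.1) values, and 2270, 1832 and 1882 lower with total library size and the TPM scales. With 1 library left out 3370 to 5928 were higher and 2479 to 5250 lower, and with the trend removed 1994 to 4139 and 2014 to 4537. Of the 103 tested genes of the related lists, 41 were higher and 19 lower. The TPM scales gave 62 and 64 higher and 9 and 9 lower, and total library size 10 lower. With 1 library left out 24 to 48 were higher and 11 to 22 lower, and with the trend removed 18 to 39 and 11 to 29. The cause of these shifts was not tested. Depth limits Selp, with 5 reads in WT and 28 in TET2KO, and Procr and Sele, with at most 50 and 102 reads per library.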
